A study of Mus musculus with 6 samples.

Results

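The 35 genes described here encode the proteins that carry glucose into the cell, the enzymes of glycolysis, the enzymes that make and export lactate, the entry point of pyruvate into mitochondria and the pentose phosphate pathway. They were chosen by name, as members of these pathways, with earlier results of these data known. They are 35 of the 23656 genes of the deposited tables, a gene being 1 symbol at 1 locus. Each was found in the files, 10 of them with more than 1 transcript. Eosinophils isolated from the small intestinal lamina propria of wild-type BALB/c mice were kept in culture for 4 hours, either untreated (3 libraries) or with 10 ng/ml GM-CSF (3 libraries), a cytokine that sustains eosinophils and other myeloid cells. Polyadenylated RNA was sequenced with a strand-preserving kit, and the labels do not tie the triplicate cultures to separate animals, so a p-value here stands against the spread between cultures only, which may be technical. No source used here says how the cells were isolated.

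Glycolysis splits glucose into pyruvate in the cytosol and yields ATP without oxygen, and granulocytes are known to draw much of their ATP from it. Pyruvate is then either reduced to lactate and exported or passed into mitochondria through the pyruvate dehydrogenase complex. The pentose phosphate pathway branches off at glucose-6-phosphate, its oxidative arm makes NADPH, which feeds the NADPH oxidase and glutathione, and its non-oxidative arm returns sugars to glycolysis. Several steps are served by isoenzymes, which are products of different genes that catalyse the same reaction.

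With GM-CSF, 7 of the genes were higher, 8 were lower and 15 did not pass the test, among 30 whose mean over all libraries reached 1 FPKM. FPKM counts fragments relative to transcript length and to the library's depth, so levels of different genes can be compared per length. The changes ran in both directions and differed from step to step. The glucose transporter Slc2a1, the phosphofructokinase Pfkp, the enolase Eno1 and the pyruvate dehydrogenase kinase Pdk3 were the 4 largest rises, while the transporter Slc2a6, the regulatory enzyme Pfkfb3, the lactate exporter Slc16a3 and the lactate dehydrogenase Ldha were the 4 largest falls that passed. The test was limma on log2(FPKM + 1) with Benjamini-Hochberg adjustment over all 10140 genes tested, and a gene counts as higher or lower at an adjusted p under 0.05. Every log2 fold change below is GM-CSF minus untreated of FPKM + 1, where changes of low genes come out too small.

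Over all genes tested 21.8% passed, 7.6% as higher and 14.2% as lower, against 50% of the 30 tested members. The groups did not overlap for 19 of the 30, including all 15 that passed, against 39.2% of all genes tested. These contrasts are description only, because the list was chosen with earlier results of these data known. The median log2 fold change was -0.04 for the members and -0.05 for all genes, and the median absolute change was 0.22 and 0.14. Members and all genes were not matched for level, and 10 members stayed above 100 FPKM in every library. With a minimum mean of 5 FPKM, 1932 of 7052 genes and 14 members passed. Only Eno1, Pdk3 and Slc2a6, 3 of the members, changed by 1 or more on the log2 scale, and 9 of the 15 that passed changed by less than 0.5. The scaling of the libraries moved the balance of rises and falls over all genes, from 771 and 1438 as deposited to 1006 and 1041 with median-of-ratios factors, 941 and 1111 with quantile normalization and 789 and 913 after rescaling to 1 FPKM sum. The members' counts went from 7 and 8 to 7 and 7, 6 and 6, and 6 and 5. With 1 library left out, 4 to 6 members were higher and 5 to 8 lower. The lowest values were 4 higher without untreated replicate 2, GM-CSF replicate 2 or GM-CSF replicate 3, and 5 lower without untreated replicate 2, untreated replicate 3, GM-CSF replicate 1 or GM-CSF replicate 3. Slc2a1, Pfkp, Eno1, Ldha and Pdk3 passed under all 18 alternatives run.

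**Figure D1:**
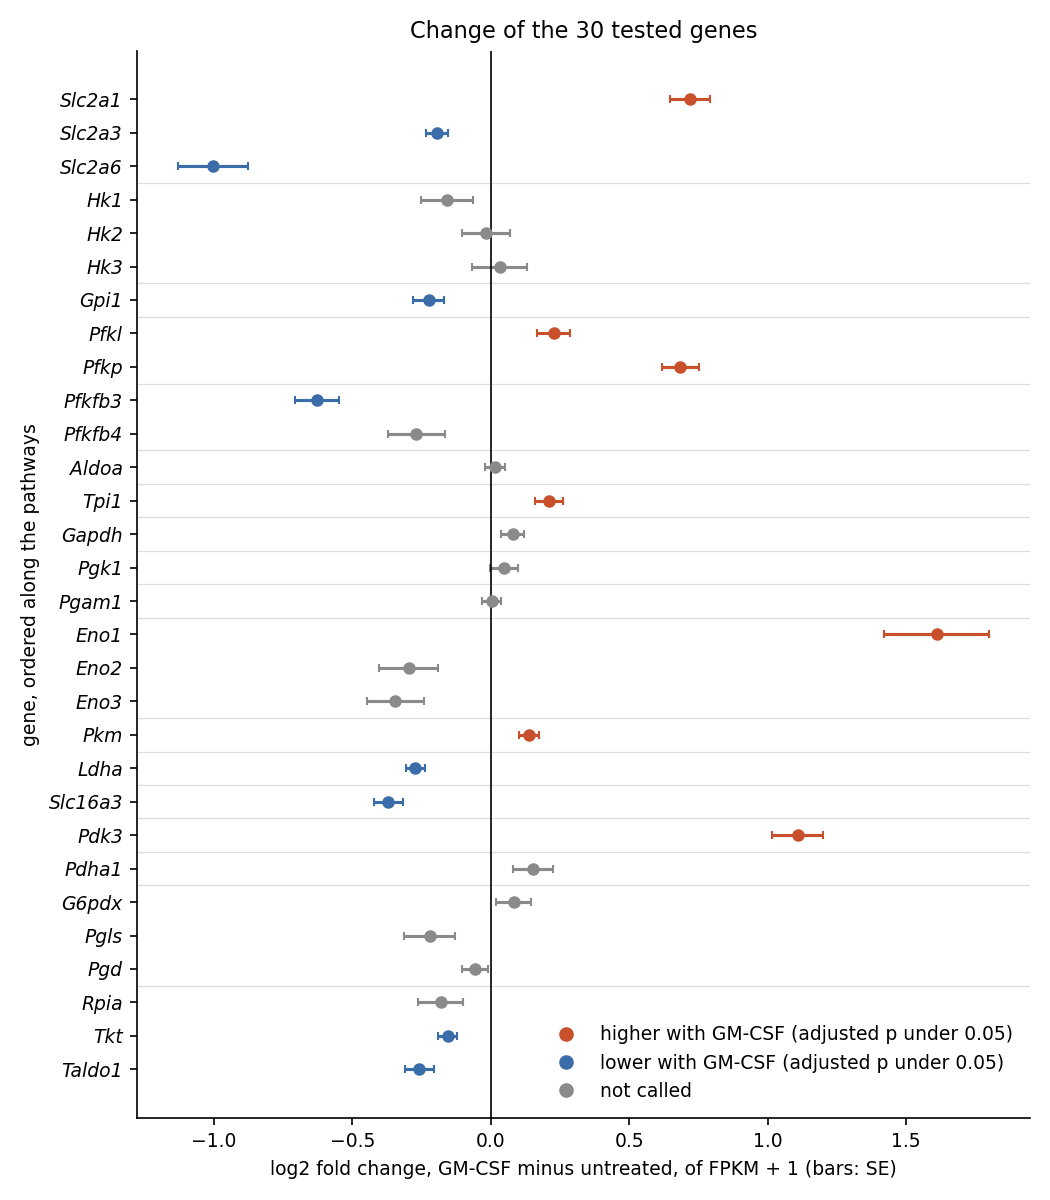
Log2 fold change (GM-CSF minus untreated, of FPKM + 1; horizontal axis) of the 30 tested genes in pathway order, with bars for the SE of the limma fit. The rises of Eno1 (1.61), Pdk3 (1.11), Slc2a1 (0.72) and Pfkp (0.68) and the falls of Slc2a6 (-1.004) and Pfkfb3 (-0.63) stand outside the range of the others, which lie between -0.37 and 0.23.

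The cultures were checked against markers. The eosinophil genes Siglec5 (the files' symbol for Siglecf) and Ccr3 measured means of 170.1 and 289.0 FPKM untreated and 170.4 and 251.3 FPKM with GM-CSF, and neither passed. Of 8 tested eosinophil markers 3 fell, Alox15 (460.6 to 157.0 FPKM), Il5ra (25.1 to 11.2) and Epx (6.62 to 4.27), and 2 rose, Csf2rb (600.4 to 1098) and Il1rl1 (1.02 to 2.40). The granule gene Prg2 was low (8.85 and 8.93 FPKM) and did not pass, and Ear1 and Ear2 had means under 1 FPKM and were not tested. The list of 10 summed to 1508 to 1633 FPKM untreated and 1659 to 1774 with GM-CSF, and the rise of Csf2rb is larger than that of the sum. Markers of other cells were present and several lists were lower with GM-CSF, where 14.2% of all genes tested passed as lower. Among B and plasma cell markers, 5 of the 5 tested fell (summed level 30.7 to 38.0 FPKM untreated and 16.1 to 17.5 with GM-CSF), as did 4 of 4 T cell markers (26.9 to 28.0 and 14.6 to 17.1), 5 of 10 epithelial markers (89.4 to 95.6 and 57.9 to 71.7), 3 of 6 macrophage and dendritic cell markers (920.6 to 990.6 and 963.2 to 1036) and 2 of 3 neutrophil markers (1342 to 1457 and 1039 to 1049, with Elane and Camp at 0). Most of the neutrophil sum was the single gene Retnlg, at means of 1344 FPKM untreated and 998.6 FPKM with GM-CSF. Most of the macrophage and dendritic cell sum was Itgax (449.8 and 430.7) and Emr1 (367.8 and 426.4), and neither passed. These sums therefore do not measure the amount of such cells. Of 3 mast cell markers 1 fell (8.17 to 20.4 and 7.99 to 11.1), the 1 tested stromal marker rose (3.26 to 3.81 and 8.29 to 8.40) and no erythroid marker was tested. In bulk RNA, fewer cells of a type and less RNA per cell cannot be told apart, and lymphocytes, epithelium and macrophages express many of the 35 genes, so the part of these cells in the rises and falls described here was not tested. The libraries rested on 0.820 to 1.32 gigabases of mapped sequence, and GM-CSF replicate 2 was the deepest.

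Levels ran from 0.0340 FPKM, for Ldhb in untreated replicate 2, to 1705 FPKM, for Aldoa in GM-CSF replicate 3. Aldoa was the most abundant of them, at a mean of 1659 FPKM in untreated libraries, followed by Taldo1, Pkm and Gapdh, and 10 genes stayed above 100 FPKM in every library. By rank of their mean among all 23656 genes, Aldoa was number 21, Taldo1 44, Pkm 59 and Gapdh 88. The mean was under 1 FPKM for 5 genes, Pfkm, Aldoc, Ldhb, Slc16a1 and Pdk1, which were therefore not tested. Each of these is 1 isoenzyme of a step at which another gene stood above it. Together the 35 genes took between 1.29% and 1.39% of the FPKM sum of a library.

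**Figure D2:**
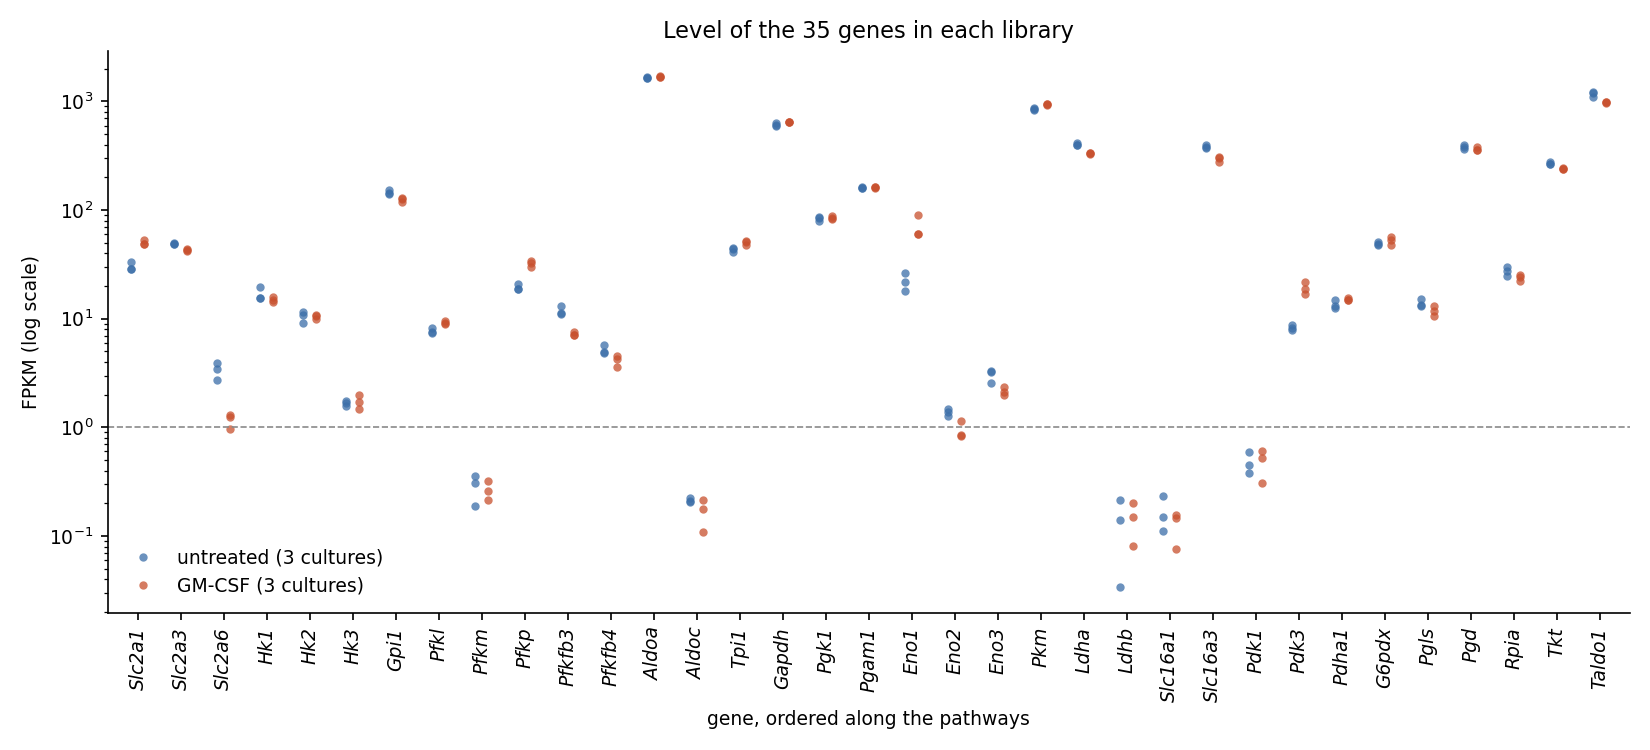
FPKM on a log axis of each of the 35 genes in pathway order, with 1 point per library (3 untreated, 3 GM-CSF) and a dashed line at the 1 FPKM minimum of the test. Aldoa, Taldo1, Pkm and Gapdh stand at the top, and Pfkm, Aldoc, Ldhb, Slc16a1 and Pdk1 below the line.

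Hypoxia-inducible factor is a known activator of many glycolytic genes and binds a short core with the letters ACGTG or GCGTG, called the hypoxia response element. These letters were looked for on both strands in the 250 bases before each start site of RefSeq's promoter table (GRCm38.p6), which matched 34 of the 35 genes. At least 1 match was found for 31 of the 34 (91.2%). The share was 62.7% of the 7420 tested genes that the table matched and 41.5% of all 27025 genes in it. Each run of letters holds CG, and these sets were not matched for base content. Counted by start site, 39 of 48 windows of the members held a match (81.25%), against 57.1% of the windows of tested genes. A match was found for 6 of 7 genes that were higher, 6 of 7 matched genes that were lower and 14 of 15 that did not pass. A match is only a run of letters, and binding was not measured here. The windows of 2 genes that rose and 2 that fell are shown, because each holds a match: Eno1 and Pfkp the letters GCGTG, Ldha and Slc16a3 the letters ACGTG. Of the windows shown, those of Pfkp, Ldha and Slc16a3 lie inside the gene interval given below and that of Eno1 lies before it. Eno1 has 3 start sites in the table and Ldha 2, of which 1 each is shown, while Pfkp and Slc16a3 have 1. Each is written 5′ to 3′ on the gene's own strand and ends at the base before the start site, with matches on either strand in capitals (CACGT and CACGC are the same letters on the other strand). The Ldha window shown holds the palindrome CACGTG at 2 places, each of which counts once per strand, and 5 matches in all.
Eno1, higher (chr4:150236458-150236707, plus strand): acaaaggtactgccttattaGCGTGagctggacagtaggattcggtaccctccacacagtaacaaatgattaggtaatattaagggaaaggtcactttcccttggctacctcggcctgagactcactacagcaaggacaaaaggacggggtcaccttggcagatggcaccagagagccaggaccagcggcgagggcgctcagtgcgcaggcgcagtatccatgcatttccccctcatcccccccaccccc
Pfkp, higher (chr13:6648772-6649021, minus strand): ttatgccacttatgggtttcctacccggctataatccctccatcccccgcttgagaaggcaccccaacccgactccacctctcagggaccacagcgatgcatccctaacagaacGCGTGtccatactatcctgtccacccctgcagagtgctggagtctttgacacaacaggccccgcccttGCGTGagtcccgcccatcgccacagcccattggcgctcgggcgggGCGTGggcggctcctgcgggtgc
Ldha, lower (chr7:46845554-46845803, plus strand): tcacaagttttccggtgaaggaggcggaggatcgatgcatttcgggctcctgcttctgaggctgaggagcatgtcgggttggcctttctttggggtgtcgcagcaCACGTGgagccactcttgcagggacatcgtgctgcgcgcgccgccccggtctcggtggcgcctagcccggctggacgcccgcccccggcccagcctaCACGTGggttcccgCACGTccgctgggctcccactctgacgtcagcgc
Slc16a3, lower (chr11:120948817-120949066, plus strand): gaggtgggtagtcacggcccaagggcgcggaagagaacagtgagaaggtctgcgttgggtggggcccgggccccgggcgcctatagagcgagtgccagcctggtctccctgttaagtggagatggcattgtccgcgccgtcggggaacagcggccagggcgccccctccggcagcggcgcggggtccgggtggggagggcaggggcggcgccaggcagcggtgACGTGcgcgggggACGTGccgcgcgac

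Glucose entry was the first step at which the gene make-up differed between the groups. Slc2a1, which encodes the widely expressed transporter GLUT1 (chromosome 4, 119108745 to 119137330, GRCm38), measured 28.7, 33.2 and 28.8 FPKM in untreated replicates 1 to 3 and 53.5, 48.7 and 48.9 FPKM with GM-CSF. All 3 treated libraries lay above all 3 untreated ones. Its level rose 1.67-fold (log2 fold change 0.72, SE 0.07, adjusted p = 0.000919). Slc2a3, which encodes the high-affinity transporter GLUT3, measured 48.6, 49.2 and 49.6 FPKM untreated and 41.8, 44.1 and 42.6 FPKM with GM-CSF, again without overlap. That small fall passed the test (log2 fold change -0.19, SE 0.04, adjusted p = 0.0141), but not after rescaling to 1 FPKM sum (adjusted p = 0.101) or without untreated replicate 2 or GM-CSF replicate 1 (adjusted p between 0.0508 and 0.0528). Slc2a6 encodes GLUT6, a transporter of internal membranes. It measured 3.43, 2.74 and 3.91 FPKM untreated and 1.24, 0.970 and 1.29 FPKM with GM-CSF, a 2.88-fold lower level (log2 fold change -1.004, SE 0.13, adjusted p = 0.00236). With its highest transcript alone this fall did not pass (adjusted p = 0.162).

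The order of the transporters by level therefore turned over. Slc2a1 made up 36.5% ± 2.17 of the summed FPKM of the 3 transporters in untreated libraries and 53.4% ± 1.81 with GM-CSF (SD, n = 3 each), while Slc2a3 went from 59.4% ± 1.41 to 45.4% ± 1.89. Slc2a3 stood above Slc2a1 in each untreated library and below it in each GM-CSF library. The sum of the 3 was 82.7 FPKM ± 2.28 untreated and 94.4 FPKM ± 1.92 with GM-CSF (SD, n = 3 each), without overlap. Shares of this kind were computed for 22 genes at 9 steps and compared with an exact two-sided permutation test, which cannot give a p under 0.1 with 3 libraries against 3. The groups did not overlap for 12 of the 22, each at that smallest p of 0.1 in the exact test (adjusted over the 22 shares, p = 0.183), where shares of 1 step add up to 100% and do not vary freely.

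**Figure D3:**
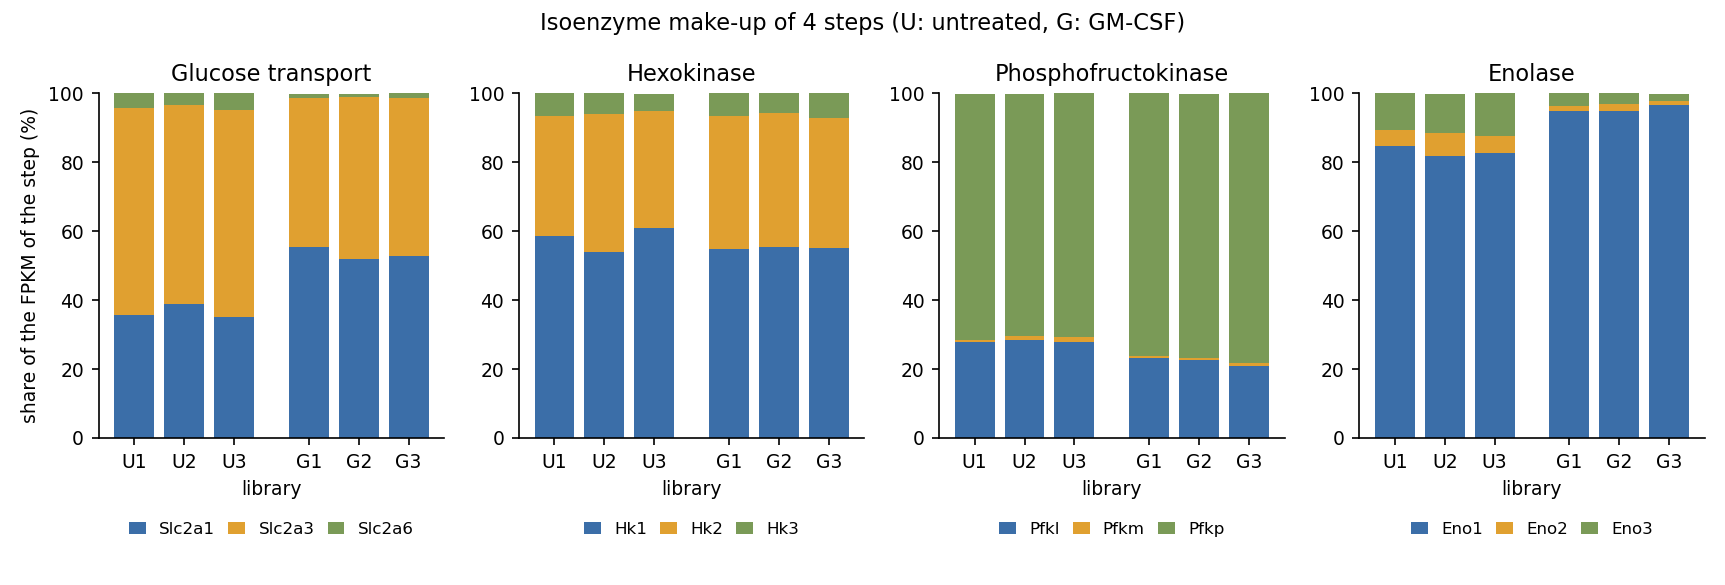
Share of each isoenzyme (%) in the summed FPKM of its step, with 1 stacked bar per library (U1 to U3 untreated, G1 to G3 GM-CSF). The share of Slc2a1 was 34.99% to 39.0% in untreated and 52.0% to 55.4% in GM-CSF libraries and that of Eno1 81.9% to 84.8% and 95.0% to 96.8% with its copy Gm5506 left out, while the hexokinases kept overlapping shares.

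Hexokinase traps glucose in the cell as glucose-6-phosphate, and none of its 3 genes passed the test. Hk1 measured 15.6, 15.6 and 19.4 FPKM untreated and 14.1, 14.9 and 15.8 FPKM with GM-CSF (log2 fold change -0.16, adjusted p = 0.291). Hk2, the isoenzyme known for its induction in activated cells, ranged from 9.24 to 11.6 FPKM untreated and from 9.88 to 10.8 FPKM with GM-CSF (log2 fold change -0.02, adjusted p = 0.917). Hk3, an isoenzyme of myeloid cells, lay between 1.49 and 2.01 FPKM over all 6 libraries (log2 fold change 0.03, adjusted p = 0.863). The groups overlapped for each of the 3 genes, and Hk1 held 57.9% ± 3.49 and 55.2% ± 0.217 of the step (SD, n = 3 each). The 2 Hk1 transcripts had shares that did not overlap between the groups. Among the 10 genes with more than 1 transcript, only Hk1, Pfkfb3 and Slc16a3 had such transcript shares, which were not tested. The transcript of 4157 nt made up 51.6% ± 5.63 of the Hk1 FPKM untreated and 76.9% ± 6.25 with GM-CSF (SD, n = 3 each), the rest being a transcript of 4100 nt. Reads that fit both were divided by the authors' software, whose error was not tested, and with the higher transcript alone the log2 fold change of Hk1 was 0.37 and did not pass.

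Gpi1, the isomerase that makes fructose-6-phosphate and stands where glycolysis and the pentose phosphate pathway part, was abundant and slightly lower. It measured 139.6, 143.1 and 153.9 FPKM untreated and 117.9, 129.9 and 125.7 FPKM with GM-CSF, without overlap (log2 fold change -0.22, SE 0.06, adjusted p = 0.0307). This call ended without untreated replicate 2, untreated replicate 3, GM-CSF replicate 1 or GM-CSF replicate 3 (adjusted p between 0.0710 and 0.0903), and with no filter on low values, after rescaling to 1 sum and without limma's trend (adjusted p between 0.0565 and 0.133).

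Phosphofructokinase commits sugar to glycolysis, and 2 of its 3 genes were higher. Pfkp, the platelet-type subunit (chromosome 13, 6579874 to 6649060), measured 20.997, 19.0 and 18.8 FPKM untreated and 29.9, 32.6 and 33.7 FPKM with GM-CSF. The treated libraries all lay above the untreated ones, a 1.64-fold rise (log2 fold change 0.68, SE 0.07, adjusted p = 0.000820). Pfkl, the liver-type subunit, measured 8.21, 7.63 and 7.42 FPKM untreated and 9.15, 9.55 and 9.04 FPKM with GM-CSF (log2 fold change 0.23, SE 0.06, adjusted p = 0.0373). Its rise did not pass without any 1 library other than untreated replicate 1 (adjusted p between 0.0777 and 0.119), with no filter on low values (adjusted p = 0.0593) or with single transcripts (adjusted p = 0.0571). Pfkm, the muscle-type subunit, lay between 0.191 and 0.361 FPKM and was not tested. The share of Pfkp in the step was 70.9% ± 0.477 untreated and 77.1% ± 1.08 with GM-CSF (SD, n = 3 each), and the sum of the 3 subunits went from 27.6 to 41.6 FPKM, without overlap.

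The bifunctional enzymes that set the level of fructose-2,6-bisphosphate, the strongest known activator of phosphofructokinase, did not rise, and 1 of the 2 fell. Pfkfb3 (chromosome 2, 11471430 to 11554071) measured 11.2, 10.96 and 13.2 FPKM untreated and 7.13, 7.601 and 7.07 FPKM with GM-CSF. It was 1.62-fold lower with no overlap of the groups (log2 fold change -0.63, SE 0.08, adjusted p = 0.00262), and the call ended with its highest transcript alone (adjusted p = 0.0735). Pfkfb4 measured 4.93, 4.796 and 5.77 FPKM untreated and 4.25, 4.54 and 3.57 FPKM with GM-CSF, which did not overlap but did not pass (log2 fold change -0.27, SE 0.10, adjusted p = 0.117). Among the 8 Pfkfb3 transcripts, which differ in length from 4655 to 5181 nt, the one of 5105 nt made up 19.0% ± 3.14 of the gene untreated and 2.56% ± 2.23 with GM-CSF (SD, n = 3 each), without overlap. The transcript of 4655 nt held most of the gene in every library, between 74.7% and 98.1%.

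The enzymes in the middle of the pathway were abundant, and Tpi1 was the 1 gene of 5 there that passed. Aldoa, which splits fructose-1,6-bisphosphate, measured 1668, 1654 and 1655 FPKM untreated and 1665, 1666 and 1705 FPKM with GM-CSF (log2 fold change 0.02, adjusted p = 0.798). Its brain isoenzyme Aldoc lay between 0.109 and 0.222 FPKM, so that Aldoa held 99.99% of the pair. Tpi1, which interconverts the triose phosphates, measured 43.4, 41.0 and 44.6 FPKM untreated and 47.7, 51.7 and 50.4 FPKM with GM-CSF (log2 fold change 0.21, SE 0.05, adjusted p = 0.0291). That rise ended without untreated replicate 1, untreated replicate 2, GM-CSF replicate 2 or GM-CSF replicate 3 (adjusted p between 0.0674 and 0.0912) and without limma's trend (adjusted p = 0.0515). Gapdh, which makes the first NADH of the pathway, measured 639.8, 593.2 and 608.8 FPKM untreated and 642.2, 651.6 and 652.1 FPKM with GM-CSF (log2 fold change 0.08, adjusted p = 0.226). The kinase Pgk1 ranged from 78.8 to 86.4 FPKM untreated and from 83.6 to 89.0 FPKM with GM-CSF (log2 fold change 0.05, adjusted p = 0.553). The mutase Pgam1 ranged from 159.8 to 164.1 and from 159.6 to 164.0 FPKM (log2 fold change 0.00, adjusted p = 0.961).

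Several of these genes have near-identical copies with which they may share reads. A search of GENCODE transcripts for stretches at least 90% identical over at least 30% of a member's transcript found such copies for 10 of the 35 genes, and for 5 of them a copy is itself listed in the files. Gapdh had 45, of which Gm12070, a processed pseudogene 99.9% identical over 70.6% of the transcript, was listed at 227 to 253 FPKM over the 6 libraries. The copies Aldoart1 and Aldoart2 of Aldoa were listed at means of 65.6 and 20.6 FPKM untreated and 67.9 and 21.7 FPKM with GM-CSF. The files give no way to tell a pseudogene's own reads from reads of its parent. Adding the listed copies to their genes, an alternative chosen after seeing the data, left 7 members higher and 8 lower.

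Enolase, which makes phosphoenolpyruvate, showed the largest rise of all 35 genes. Eno1, the alpha subunit (chromosome 4, 150236708 to 150248879), measured 26.1, 18.1 and 21.8 FPKM untreated and 60.1, 60.0 and 89.3 FPKM with GM-CSF. Each treated library lay above each untreated one, with GM-CSF replicate 3 the highest. The level was 3.17-fold higher (log2 fold change 1.61, SE 0.19, adjusted p = 0.00183) and its log2 fold change was 1.42 without GM-CSF replicate 3. Its protein-coding copy Gm5506, named Eno1b in GENCODE and 99.5% identical over 85.6% of the Eno1 transcript, was listed at a higher level than Eno1 itself. Gm5506 measured 83.0, 81.9 and 89.7 FPKM untreated and 175.8, 188.0 and 197.8 FPKM with GM-CSF (log2 fold change 1.13, SE 0.06, adjusted p = 6.14e-05). No source used here says how the authors' software divided reads between the pair, so their sum is given too. It was 109.2, 99.99 and 111.4 FPKM untreated and 235.9, 248.0 and 287.1 FPKM with GM-CSF, a 2.41-fold rise without overlap (log2 fold change 1.25, adjusted p = 0.000153). Eno1 held 20.5% ± 3.04 of that sum untreated and 26.9% ± 3.67 with GM-CSF (SD, n = 3 each).

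**Figure D4:**
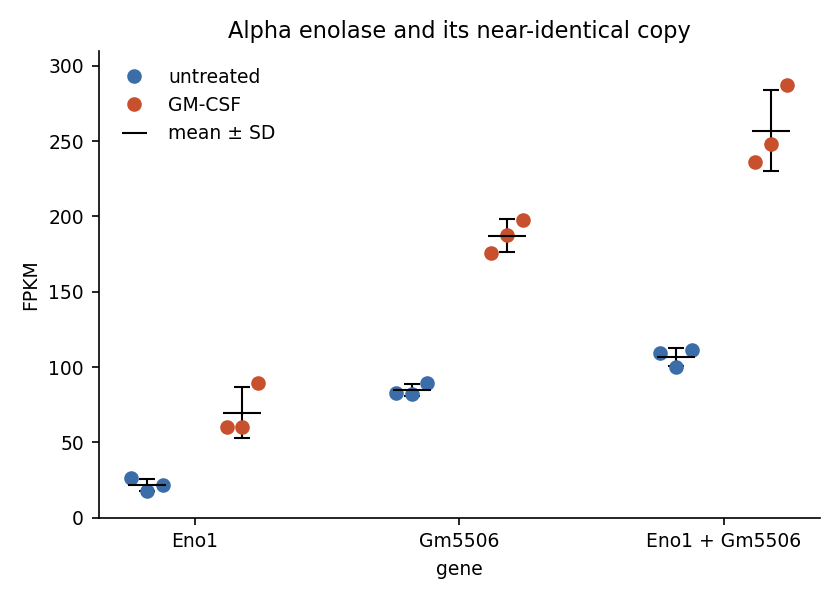
FPKM of Eno1, of its copy Gm5506 and of their sum, with 1 point per library (3 untreated, 3 GM-CSF) and black marks for the mean ± SD of each group. The 3 treated libraries lie above the 3 untreated ones for each, from 99.99 to 111.4 FPKM against 235.9 to 287.1 FPKM for the sum.

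The other enolase genes were low and did not pass. Eno2, the neuronal gamma subunit, measured 1.40, 1.47 and 1.27 FPKM untreated and 0.828, 1.16 and 0.845 FPKM with GM-CSF (log2 fold change -0.30, SE 0.11, adjusted p = 0.102). Eno3, the muscle beta subunit, measured 3.29, 2.54 and 3.23 FPKM untreated and 2.34, 2.00 and 2.13 FPKM with GM-CSF (log2 fold change -0.34, SE 0.10, adjusted p = 0.0597). The groups did not overlap for either gene. Eno1 made up 83.2% ± 1.495 of the 3 genes untreated and 95.6% ± 1.03 with GM-CSF (SD, n = 3 each). These shares leave out Gm5506. With Gm5506 counted as Eno1, an alternative chosen after seeing the data, the shares were 96.0% ± 0.141 and 98.8% ± 0.157 (SD, n = 3 each), so the difference of 12.4 percentage points became 2.75, without overlap in either case.

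Pyruvate kinase, the last ATP-yielding step, was slightly higher. Pkm measured 870.2, 837.2 and 844.6 FPKM untreated and 941.1, 928.2 and 941.7 FPKM with GM-CSF, without overlap (log2 fold change 0.14, SE 0.04, adjusted p = 0.0358). The rise did not pass without any 1 library other than untreated replicate 1 (adjusted p between 0.0879 and 0.146), nor under several other settings listed with the limits. The gene makes a muscle-type (M1) and a second (M2) form by mutually exclusive exons, and the files list 2 transcripts of 2432 nt. NM_011099, the M2 form, held 78.9% ± 0.734 of the gene untreated and 78.3% ± 0.189 with GM-CSF (SD, n = 3 each), with overlapping groups.

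The lactate branch was lower at both of its steps. Ldha, which reduces pyruvate to lactate (chromosome 7, 46842274 to 46855627), measured 398.2, 393.7 and 413.1 FPKM untreated and 328.8, 332.5 and 336.0 FPKM with GM-CSF. All treated libraries lay below all untreated ones, at a 1.21-fold lower level (log2 fold change -0.27, SE 0.04, adjusted p = 0.00291). Ldhb, the isoenzyme of oxidative tissues, lay between 0.0340 and 0.217 FPKM, so that Ldha held 99.97% of the pair untreated and 99.96% with GM-CSF. These shares leave out Ldhc, a gene outside the 35, at means of 83.6 FPKM untreated and 62.4 FPKM with GM-CSF. Slc16a3, which encodes the lactate exporter MCT4 (chromosome 11, 120948484 to 120959000), measured 397.8, 380.0 and 375.5 FPKM untreated and 310.7, 302.9 and 279.1 FPKM with GM-CSF. It was 1.29-fold lower without overlap (log2 fold change -0.37, SE 0.05, adjusted p = 0.00363), a call that ended with its highest transcript alone (adjusted p = 0.0571). Slc16a1, which encodes MCT1, lay between 0.0766 and 0.236 FPKM and was not tested. Of the 3 Slc16a3 transcripts the one of 2493 nt made up 10.8% ± 1.35 of the gene untreated and 2.99% ± 2.84 with GM-CSF (SD, n = 3 each), without overlap.

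At the mitochondrial entry, 1 of the kinases that switch pyruvate dehydrogenase off was higher. Pdk3 (chromosome X, 93764616 to 93832150) measured 7.93, 8.80 and 8.22 FPKM untreated and 18.8, 17.0 and 21.7 FPKM with GM-CSF. The treated libraries all lay above the untreated ones, a 2.30-fold rise (log2 fold change 1.11, SE 0.09, adjusted p = 0.000424), the smallest adjusted p among the 35 genes. Pdk1, another kinase of the same complex, lay between 0.311 and 0.605 FPKM and was not tested, and Pdk3 held 94.6% ± 1.22 of the pair untreated and 97.6% ± 0.662 with GM-CSF (SD, n = 3 each). These shares leave out Pdk2, a gene outside the 35. It went from 2.52 to 1.52 FPKM, without overlap, and did not pass (adjusted p = 0.146). Pdha1, the catalytic subunit that these kinases phosphorylate, measured 12.5, 13.1 and 14.9 FPKM untreated and 14.9, 14.8 and 15.6 FPKM with GM-CSF, with overlap (log2 fold change 0.15, SE 0.07, adjusted p = 0.191).

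In the pentose phosphate pathway, none of the 3 oxidative genes passed and 2 of the 3 non-oxidative genes were lower. G6pdx, the entry enzyme and the first source of NADPH, measured 48.8, 48.1 and 51.1 FPKM untreated and 48.1, 52.8 and 56.3 FPKM with GM-CSF (log2 fold change 0.08, adjusted p = 0.421). Pgls, the lactonase, ranged from 13.0 to 15.2 FPKM untreated and from 10.6 to 13.1 FPKM with GM-CSF (log2 fold change -0.22, adjusted p = 0.146). Pgd, the second source of NADPH, was the most abundant of the arm at 361.9, 379.8 and 393.2 FPKM untreated and 354.0, 378.0 and 359.0 FPKM with GM-CSF (log2 fold change -0.06, adjusted p = 0.457). The groups overlapped for each of these 3 genes. G6pdx has a retrocopy, G6pd2, 93.1% identical over 87.5% of its transcript, at 3.35 to 4.57 FPKM over the 6 libraries.

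Transketolase and transaldolase, which move carbon units between the sugars of the non-oxidative arm, were lower. Taldo1, the second most abundant of the 35 genes, measured 1097, 1199 and 1226 FPKM untreated and 998.5, 983.7 and 958.2 FPKM with GM-CSF, without overlap (log2 fold change -0.26, SE 0.05, adjusted p = 0.0152). Tkt measured 263.1, 266.8 and 275.0 FPKM untreated and 241.6, 240.9 and 239.7 FPKM with GM-CSF, also without overlap (log2 fold change -0.16, SE 0.03, adjusted p = 0.0209). Rpia, the ribose-5-phosphate isomerase, measured 27.3, 29.7 and 24.5 FPKM untreated and 22.1, 24.1 and 25.2 FPKM with GM-CSF, with overlap (log2 fold change -0.18, adjusted p = 0.172). The fall of Taldo1 ended without untreated replicate 2, untreated replicate 3, GM-CSF replicate 2 or GM-CSF replicate 3 (adjusted p between 0.0506 and 0.0711), with no filter on low values and with quantile normalization (adjusted p between 0.0515 and 0.0951). That of Tkt ended without any 1 library other than untreated replicate 1 (adjusted p between 0.0525 and 0.0670), with each of the 3 other scalings and without limma's trend (adjusted p between 0.0606 and 0.198).

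Other genes around these pathways were read from the same fit, in which 21.8% of all genes tested passed, 7.6% as higher and 14.2% as lower. Among 15 tested genes of glucose transport and glycolysis outside the 35, 1 was higher, 5 were lower and 9 did not pass (median log2 fold change -0.11). Adpgk, an ADP-dependent glucokinase, went from 27.6 to 13.0 FPKM (a log2 fold change of -1.03, SE 0.08, adjusted p = 0.000363). Ldhc, known as the testis lactate dehydrogenase and lying beside Ldha, fell from 83.6 to 62.4 FPKM (log2 fold change -0.42, adjusted p = 0.00204). The intracellular transporter gene Slc2a8 fell by 0.42 on the log2 scale. Of 10 genes of pyruvate entry, 1 was higher and 2 were lower. Pdp1, the phosphatase that opposes the Pdk kinases, rose from 2.29 to 4.796 FPKM (log2 fold change 0.81, adjusted p = 0.00274), while Pdhb, the second subunit of the dehydrogenase (-0.29), and the pyruvate carrier gene Mpc1 (-0.28) fell. Of 4 other pentose phosphate genes Prps1, which makes phosphoribosyl pyrophosphate, fell (-0.47) and 3 did not pass.

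Genes of glycogen and of the citric acid cycle were read in the same way, beside the 21.8% of all genes tested that passed. Of 15 glycogen genes, 2 were higher, 2 were lower and 11 did not pass. The glycogen primer gene Gyg rose from 32.3 to 58.5 FPKM (log2 fold change 0.84, adjusted p = 0.000259). Pygl, the phosphorylase of liver and leukocytes, rose from 212.2 to 303.8 FPKM (0.52, adjusted p = 0.00638). Of 21 citric acid cycle genes, 1 was higher, 5 were lower and 15 did not pass (median log2 fold change -0.11). The NADP-dependent dehydrogenase gene Idh1 fell from 29.3 to 16.1 FPKM (-0.83) and the malic enzyme gene Me2 from 35.01 to 21.05 FPKM (-0.71), while Idh3a rose from 5.27 to 7.15 FPKM (0.38). Of 17 known regulators of the pathway genes, 3 were higher, 2 were lower and 12 did not pass. Egln3, a prolyl hydroxylase that marks hypoxia-inducible factor for destruction, rose from 2.05 to 25.3 FPKM (log2 fold change 3.11, adjusted p = 8.77e-06), Hif1a, the factor's oxygen-regulated subunit, from 66.1 to 104.3 FPKM (0.65, adjusted p = 0.000131), and Mxi1, which encodes a partner of Max that opposes Myc, fell from 28.6 to 17.3 FPKM (-0.70).

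**Figure D5:**
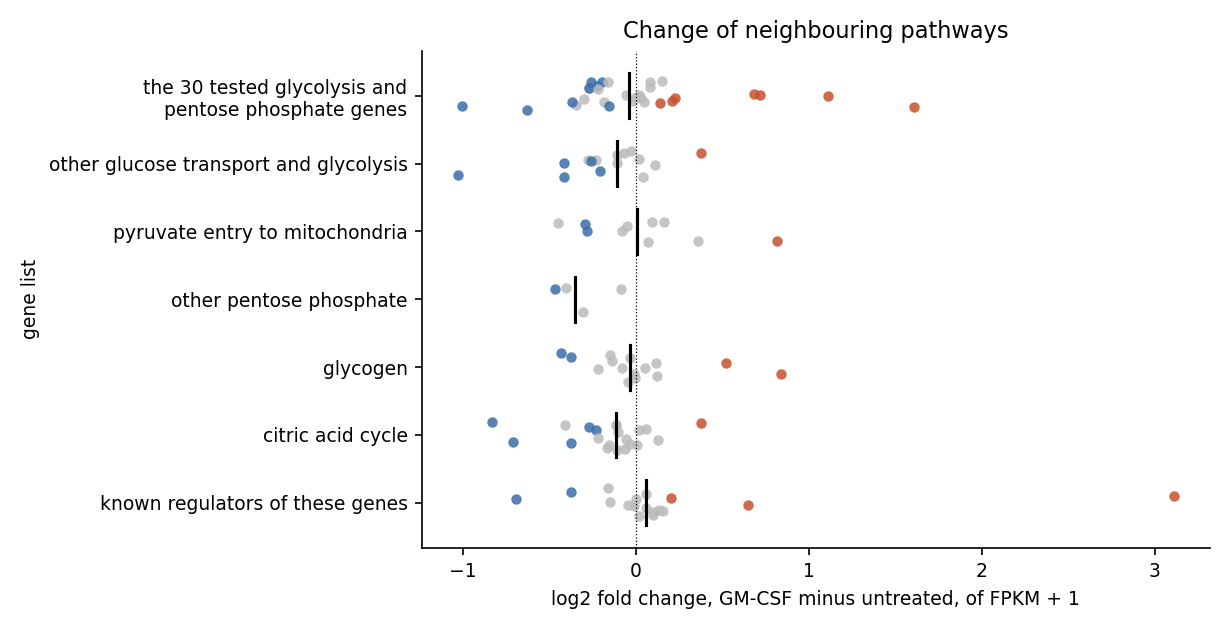
Log2 fold change (GM-CSF minus untreated, of FPKM + 1; horizontal axis) of each tested gene in the 30 members and 6 neighbouring lists, with a bar at the median of each list. Red points passed as higher, blue as lower and grey did not pass, and the vertical offset of points within a list carries no value. Rises and falls occur in most lists, and Egln3 (3.11) lies farthest from 0.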

How the data were processed

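Each of the 6 libraries has a table of 30374 RefSeq transcripts. The authors deposited FPKM per transcript with an interval and a coverage, per the file headers, and the files hold no read counts. Tools listed in the submitters' processing notes are Cufflinks, TopHat, TopHat2 and bcl2fastq 1.8.4, with build mm10 and no settings. The deposited coverage divided by FPKM gave the depth, in gigabases mapped. Of the 44 to 46 member transcripts above 0.1 FPKM in a library, 9 to 12 lay outside their own deposited interval, and the intervals were not used.

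Transcripts were summed per symbol and locus, and genes averaging 1 FPKM or more were tested on log2(FPKM + 1) with limma 3.58.1 in R 4.3.3 (empirical Bayes with a trend, two-sided). The test was tested on simulated data. Near copies were searched with minimap2 2.31. Coordinates and promoters are RefSeq's (GRCm38). The members and lists were chosen with earlier results of these data known. All 35 members are named, and from each other list the 3 genes that changed most among those that passed, where any did (1 gene that this rule takes is not reported here). Of the marker lists only sums and counts are given, beside eosinophil genes as a check of the label and the genes that dominate or are absent from a sum. Alternatives changed the pseudocount, filter, scaling, transcript sum, trend and replicate block, added near copies, or left out 1 library.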

Additional observations from a re-analysis of the deposited data

How the results depend on the processing

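No log2 fold change of a member that passed took the opposite sign under any of the 18 alternatives run (0 reversed). Of the 15 that passed, 5 kept their call under every alternative and 10 lost it under at least 1. Among those that did not pass, Eno2 gained a call without GM-CSF replicate 2 and Eno3 without untreated replicate 2, without limma's trend and with the shortest transcripts left out. Rescaling to 1 FPKM sum gave 913 genes lower over all genes and 5 members lower. The highest transcript alone gave 5 members lower, 6 members higher and 5 genes of the neighbouring lists higher, against 8. No other setting moved a count of calls by over 1.5 times except the block and the loss of a library. Leaving out 1 library in turn gave 883 to 1137 genes lower, against 1438, 4 to 6 members higher, 5 to 8 members lower and 5 to 7 genes of the neighbouring lists higher, with fewer libraries in each fit. Pkm also lost its call with no filter on low values, after rescaling to 1 sum, with quantile normalization and without the trend (adjusted p up to 0.184).

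The replicate numbers are shared by both groups, and the labels do not say whether cultures of the same number were paired. Deviations from the group means correlated over genes at -0.031, 0.050 and -0.021 for libraries with the same number. Libraries with different numbers gave -0.062 to 0.084. With 3 libraries per group these values cannot decide whether the cultures were paired. With the replicate number as a block, 4 members were higher and 8 lower and 1991 genes passed in all; Pfkl, Tpi1 and Pkm no longer passed. Depth limits the low genes: the isoenzymes under 1 FPKM were not compared, and the shares of transcripts depend on how reads were divided.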
